A study of Mus musculus with 8 samples.

Results

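Nuclear pore and nuclear transport genes were followed in the nuclear RNA of mouse forebrain excitatory neurons after pilocarpine. The genes were chosen by symbol: nucleoporins (Nup and Nupl), exportins (Xpo), importins (Ipo, Kpna, Kpnb), transportins (Tnpo), the mRNA exporters Nxf1, Nxt1 and Nxt2, Ran, Rangap1, Ranbp genes, Thoc genes and Alyref. Each also had to reach 10 counts in at least 4 libraries of the exonic table. Of 65 genes with such a symbol, 63 met the rule, out of 55471 genes in that table. Kpna7 lay just inside the limit, with 10 or more counts in 5 libraries, and Nupl1 and Nup62cl fell outside it, with 2 and 0 such libraries. A second table, counted in another annotation, held 62 of the 63 (Ranbp6 was not in it), and 61 could be tested in its introns, since Nup62 had no intronic counts.

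The nuclear pore is a ring of scaffold proteins set in the nuclear envelope, lined by disordered phenylalanine-glycine (FG) repeat proteins that form the barrier. Importins bring cargo in and exportins take cargo out, and Ran, kept bound to GTP in the nucleus and to GDP in the cytoplasm, sets the direction. Messenger RNA leaves by another route, through the Nxf1 and Nxt1 receptor loaded by the TREX complex (the Thoc proteins and Alyref). In neurons this machinery carries activity-regulated transcription factors and their cofactors between synapse, cytoplasm and nucleus, and takes newly made transcripts out.

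The 4 Pilo samples were from mice given scopolamine methyl nitrate (1 mg/kg) and, 30 min later, pilocarpine (340 mg/kg), a muscarinic agonist that provokes seizures. Their seizures ran for 100 min, and only Pilo mice with a Racine seizure score of 3 to 5 entered the study. The 4 Mock samples were from mice given scopolamine methyl nitrate and then saline. All were male C57BL/6J mice of 6 to 8 weeks carrying CaMKIIalpha-Cre, active mainly in forebrain excitatory neurons, and SUN1-sfGFP, so that a green fluorescent tag on the inner nuclear membrane marked nuclei of cells with Cre, and antibody to GFP pulled these nuclei down. Drug and seizure came together in every Pilo sample and cannot be told apart. Nor can fewer nuclei of a type be told apart from less RNA per nucleus in such bulk samples. Nothing in the labels states that every sample came from its own mouse. The p-values therefore reflect how far these samples spread, and part of that spread may be technical.

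The exonic table held 29356788 to 36161448 counts per library, and the second table held 27135364 to 33715773 exonic and 11928054 to 16703475 intronic counts. By their values, libraries 2 and 3 of each group carry swapped numbers in the second table, so each replicate number below is the one in the table it comes from. The 8 excitatory markers summed to 2950 to 3500 CPM in Pilo and 2590 to 3236 CPM in Mock (CPM, counts scaled to library size after TMM normalization), and no marker of any list was at 0. Markers of other cells were present too: oligodendrocyte markers summed to 383 to 688 CPM in Pilo and 301 to 416 CPM in Mock, medium spiny neuron markers to 341 to 486 CPM in Pilo and 301 to 425 CPM in Mock, astrocyte markers to 149 to 348 CPM in Pilo and 134 to 265 CPM in Mock, and inhibitory markers to 162 to 258 CPM in Pilo and 128 to 164 CPM in Mock. Endothelial markers summed to 24.1 to 97.4 CPM in Pilo, highest in replicate 3, and 21.1 to 41.7 CPM in Mock, and microglial markers to 38.2 to 52.3 CPM in Pilo and 38.0 to 50.9 CPM in Mock. Of these lists of 8 genes, edgeR's test called 4 higher and 1 lower among excitatory markers, 2 higher each among inhibitory and medium spiny neuron markers, 1 higher each among astrocyte and oligodendrocyte markers, and 0 among endothelial and microglial markers. With the replicate number, which the groups share, as a block, 7 inhibitory, 6 medium spiny neuron, 6 astrocyte, 6 oligodendrocyte, 4 endothelial and 0 microglial markers were higher and 0 lower, and 5 excitatory markers were higher and 2 lower. The part of these shifts in the results below was not tested.

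Changes in the transport genes were of modest size and ran in both directions. Of the 63 members, 12 were higher and 13 lower in Pilo than in Mock in the quasi-likelihood test of edgeR, with Benjamini-Hochberg adjusted p under 0.05 over all genes, or 39.7% of members. Across all 19176 genes tested 31.8% were called, 15.6% higher and 16.2% lower, so the members' share was somewhat above the background, and no test of that difference was made. The median log2 fold change of members was 0.05, against 0.00 for all genes, and the median of its absolute size was 0.21 for members and 0.26 for all genes. In exons only Nxt1 changed past 2-fold. Of the 25 called members, 23 had no overlap between the Pilo and Mock samples, and of all 63 members 28 had none. The share without overlap over all genes was not computed, so these counts show nothing particular to the members. With the shared replicate number as a block, 22 members were higher and 15 lower, including all 25. The block also raised the counts over all 19176 genes, to 4572 higher and 4443 lower.

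By role, 0 of the 22 nucleoporins among the members rose and 6 fell, with a median log2 fold change of -0.05. Among the 17 import receptors and adaptors 4 rose and 1 fell, with a median of 0.18. Of the 7 exportins 3 rose and 2 fell, with a median of 0.22. Of the 4 genes of the Ran cycle 3 rose and 1 fell, and of the 10 mRNA export genes 1 rose and 3 fell. With the replicate block 3 nucleoporins were higher and 7 lower, 9 import receptors and adaptors higher and 1 lower, and 5 exportins higher and 2 lower. Over all genes 15.6% were called higher and 16.2% lower without the block, and 4572 higher and 4443 lower of 19176 with it. These are counts of members only, and no difference between roles, or from all genes, was tested. Pore components outside the symbol rule are given below.

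**Figure D1:**
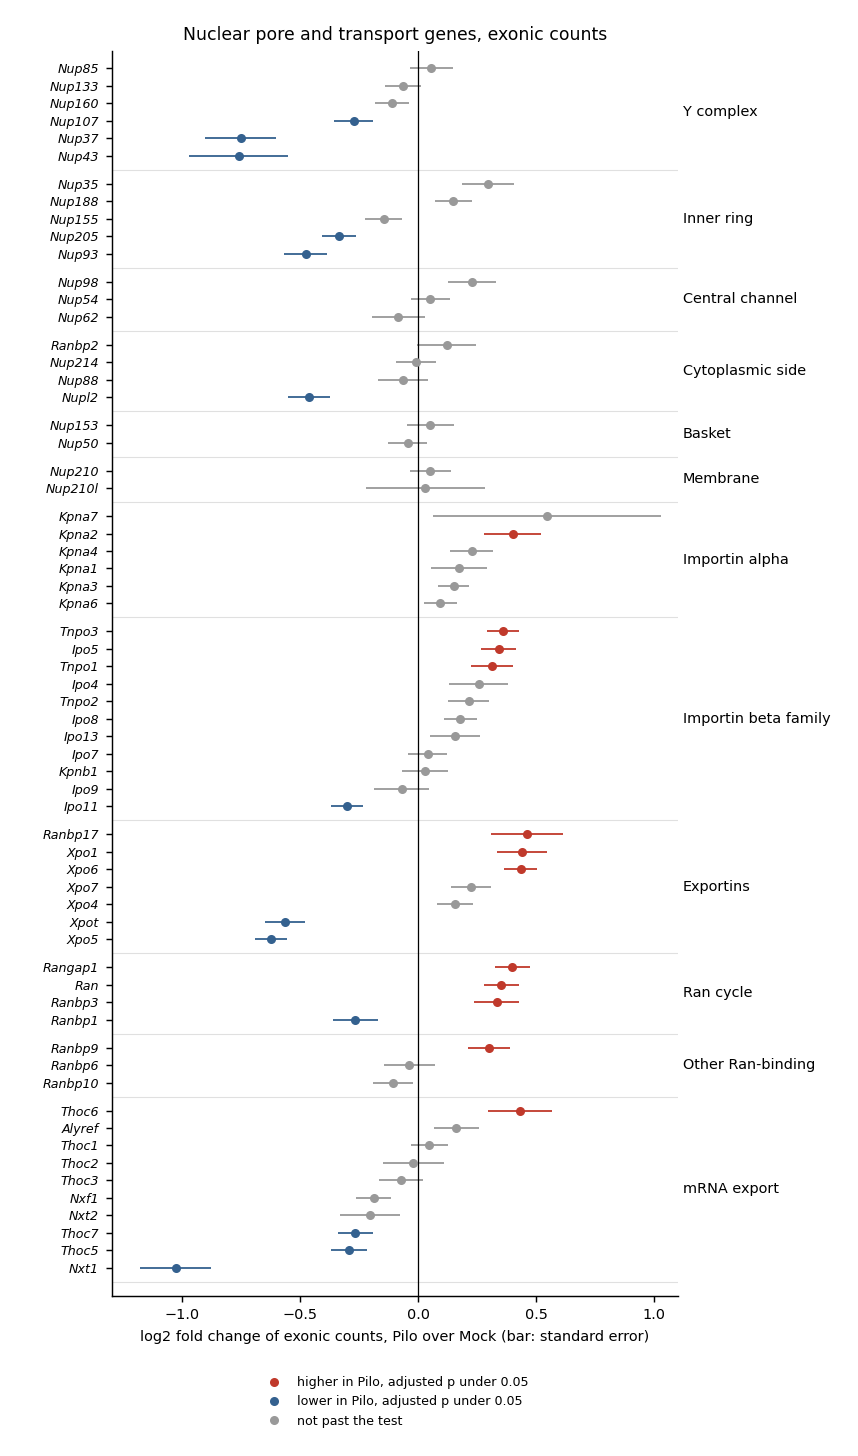
Log2 fold change of exonic counts, Pilo over Mock, for all 63 members, grouped by role. Points are the edgeR estimates and bars their standard errors (n = 4 Pilo and 4 Mock). Red points are higher and blue points lower in Pilo at an adjusted p under 0.05. No nucleoporin is red in this fit without the replicate block, and Nxt1 lies farthest left.

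Start-site sequences are shown for Xpo1, Kpna2 and Rangap1, the 3 of the 6 largest risers whose window held a half-site of the cyclic AMP response element (CRE), the motif bound by CREB, an activity-regulated transcription factor of neurons. Each window has 250 bases before and 50 after the start, from RefSeq on GRCm38.p6, and lies at chr11:23255791-23256090 (plus strand) for Xpo1, chr11:106999476-106999775 (minus strand) for Kpna2 and chr15:81729870-81730169 (minus strand) for Rangap1. The Rangap1 window is at a RefSeq start that lies inside the gene as GENCODE gives it (81704248 to 81745530), not at the 5′ end of that span. Capitals mark the half-site, TGACG or, on the other strand, its reverse complement CGTCA.
Xpo1: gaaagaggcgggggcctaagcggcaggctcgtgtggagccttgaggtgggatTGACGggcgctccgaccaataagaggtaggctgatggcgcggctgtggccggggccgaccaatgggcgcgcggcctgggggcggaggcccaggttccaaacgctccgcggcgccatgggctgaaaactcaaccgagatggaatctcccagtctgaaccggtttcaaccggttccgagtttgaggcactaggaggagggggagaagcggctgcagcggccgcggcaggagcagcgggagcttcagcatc
Kpna2: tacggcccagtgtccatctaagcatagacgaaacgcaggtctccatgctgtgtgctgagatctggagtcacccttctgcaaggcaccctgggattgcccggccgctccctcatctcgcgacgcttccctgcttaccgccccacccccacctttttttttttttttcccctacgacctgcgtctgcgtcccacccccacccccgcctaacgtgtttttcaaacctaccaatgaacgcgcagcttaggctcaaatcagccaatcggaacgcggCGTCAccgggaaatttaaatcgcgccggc
Rangap1: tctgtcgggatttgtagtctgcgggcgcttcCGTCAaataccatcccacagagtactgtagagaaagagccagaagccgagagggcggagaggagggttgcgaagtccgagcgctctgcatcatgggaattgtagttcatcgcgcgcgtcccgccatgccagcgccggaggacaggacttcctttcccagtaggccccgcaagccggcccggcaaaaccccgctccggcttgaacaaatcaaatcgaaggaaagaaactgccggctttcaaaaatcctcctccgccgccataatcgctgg
None of the 6 windows (those of Ranbp17, Xpo6 and Thoc6 are the others) held the full CRE, TGACGTCA, or the AP-1 motif, TGANTCA, on either strand. The half-site was in 5 of the 11 risers with a window and 3 of the 12 fallers with one. It was in 37.7% of the 61 windows of members and in 20.8% of all 32851 windows, counting both strands and including half-sites within a full CRE. The full CRE was in 4 of the 61 windows, against 1.79% of all windows, and AP-1 in 5, against 7.81%. The E-box CACGTG was in 9 of the 61, against 7.15%, the CCAAT box in 29, against 37.4%, and the EGR motif GCGTGGGCG in 0, against 0.612%. Windows were found for 50 of the 63 members, some with several, and not for Ranbp3 or Nup43. A match describes the letters only.

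Ran, the small GTPase at the centre of the system, rose. Ran exonic counts stood at 67.0, 63.5, 63.4 and 63.8 CPM in Pilo and 54.2, 45.7, 49.5 and 52.6 CPM in Mock, with a log2 fold change of 0.35 and an SE of 0.07 (adjusted p = 0.00237). All Pilo samples were above all Mock samples, with Pilo replicate 1 the highest. Rangap1, which switches on GTP hydrolysis by Ran at the cytoplasmic face of the pore, was at 119, 142, 128 and 123 CPM in Pilo and 92.7, 98.2, 101 and 96.4 CPM in Mock (log2 fold change 0.40, SE 0.07, adjusted p = 0.00127), again without overlap. Ranbp3, a nuclear cofactor of exportin 1, was at 156, 190, 146 and 169 CPM in Pilo and 130, 138, 116 and 141 CPM in Mock (0.33, SE 0.09, adjusted p = 0.0163). Its lowest Pilo sample, replicate 3, was above every Mock sample and stood opposite the lowest Mock sample, also replicate 3. Ranbp1, which helps RanGAP release Ran from export complexes, went the other way, at 14.0, 14.1, 13.1 and 15.0 CPM in Pilo and 17.2, 18.8, 15.2 and 16.6 CPM in Mock (-0.27, SE 0.10, adjusted p = 0.0468). The gap between its groups was narrow, and the call held in only 1 of the 8 fits that left out a library, the one without Mock replicate 3, with an adjusted p of up to 0.146 in the others. On the same strand 16.9% of Ranbp1 exon bases are shared with the gene Gm49776.

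Among 7 tested genes of the Ran cycle and transport receptors outside the symbol rule, 0 rose and 3 fell (42.9% called, against 31.8% of all genes). The replicate block gave 1 higher and 4 lower. Rcc1, the chromatin-bound exchange factor that loads Ran with GTP, was at 20.5, 23.4, 18.3 and 18.8 CPM in Pilo and 29.0, 31.7, 26.2 and 30.5 CPM in Mock (log2 fold change -0.53, SE 0.10, adjusted p = 0.00114). Every Pilo sample was below every Mock sample. Nutf2, which carries Ran back into the nucleus, fell by 0.34 on the log2 scale (adjusted p = 0.0125), and Rangrf, a small Ran-binding protein, fell by 0.58 (adjusted p = 0.0199). Both calls were lost in some fits that left out a library: Nutf2 in 1 of 8, with an adjusted p of 0.0541, and Rangrf in 2 of 8, with up to 0.0577. Ranbp9, a scaffold of a ubiquitin ligase complex that is named for Ran but has other roles, was at 114, 148, 150 and 129 CPM in Pilo and 108, 110, 116 and 105 CPM in Mock (0.30, SE 0.09, adjusted p = 0.0214). Pilo replicate 1 fell within the Mock range, and the call was lost without Pilo replicate 2 or Mock replicate 4 (adjusted p up to 0.0608). Ranbp6 and Ranbp10 did not pass, at -0.04 (adjusted p = 0.828) and -0.11 (adjusted p = 0.373).

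The exportins changed in both directions. Xpo1 (ENSMUSG00000020290, GRCm38 chromosome 11, 23256041 to 23298249), the general exporter of proteins with a leucine-rich signal, was at 312, 239, 216 and 253 CPM in Pilo and 190, 177, 206 and 179 CPM in Mock. The lowest Pilo sample was only just above the highest Mock sample, while Pilo replicate 1 stood well above the rest. The log2 fold change was 0.44 (SE 0.11, adjusted p = 0.00614). Xpo6, which exports actin bound to profilin, was at 132, 141, 128 and 145 CPM in Pilo and 98.5, 100, 99.3 and 105 CPM in Mock (0.43, SE 0.07, adjusted p = 0.000435), with a wide gap between the groups. Ranbp17, an exportin-like relative of Xpo7, was at 10.5, 15.8, 11.0 and 13.4 CPM in Pilo and 9.85, 9.48, 7.11 and 10.4 CPM in Mock (0.46, SE 0.15, adjusted p = 0.0336). Its groups nearly touched, and the call was lost without Pilo replicate 2 or 4 or Mock replicate 2 or 3 (adjusted p up to 0.104).

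The exporters of small RNA fell. Xpo5 (ENSMUSG00000067150, chromosome 17, 46202782 to 46243598), which exports the hairpin precursors of microRNAs, was at 99.3, 101, 103 and 100 CPM in Pilo and 165, 156, 145 and 156 CPM in Mock. The Pilo samples lay within a few CPM of each other and all far below Mock, and the log2 fold change was -0.63 (SE 0.07, adjusted p = 2.73e-05). Xpot (ENSMUSG00000034667, chromosome 10, 121587380 to 121626332), the exporter of transfer RNA, was at 53.3, 49.5, 60.8 and 47.7 CPM in Pilo and 77.2, 79.8, 81.3 and 74.3 CPM in Mock (-0.56, SE 0.08, adjusted p = 0.000233), also without overlap. Both calls held in each of the 8 fits that left out a library. Xpo7 and Xpo4, exporters of other proteins, did not pass, at 0.22 (SE 0.08, adjusted p = 0.0589) and 0.16 (SE 0.08, adjusted p = 0.138). Under the replicate block both were called, at adjusted p = 0.0035 and 0.0470.

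**Figure D2:**
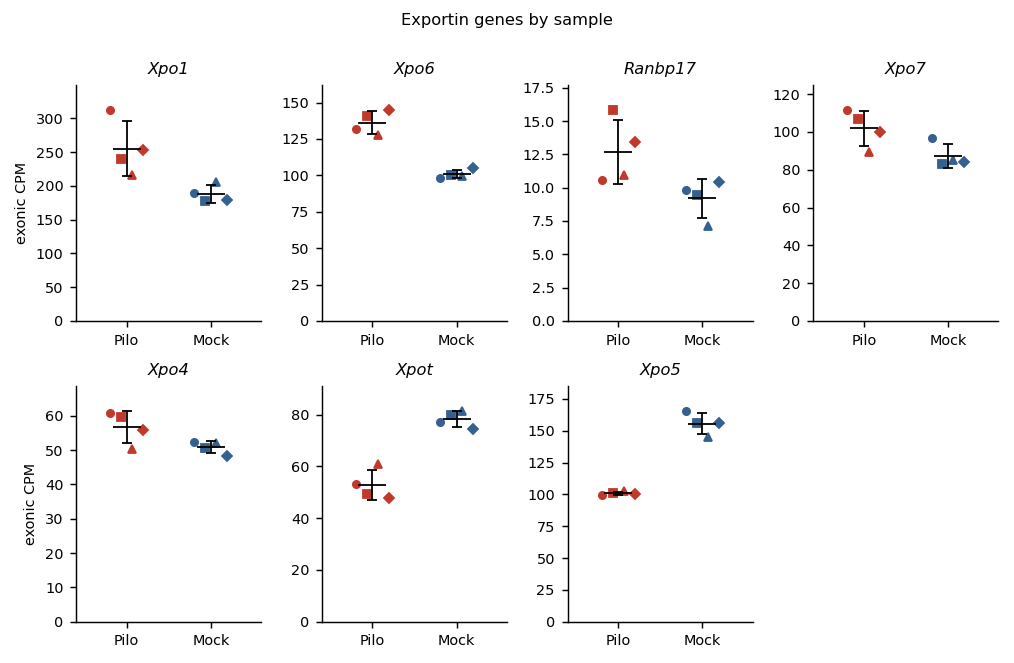
Exonic CPM (linear axis from 0) of the 7 exportin genes in each Pilo and Mock sample. Symbols give the replicate number (circle 1, square 2, triangle 3, diamond 4) and black bars the mean and SD (n = 4 per group). Xpo1 and Xpo6 lie higher in Pilo, and Xpot and Xpo5 lie lower in Pilo with no overlap.

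Import receptors that passed the test mostly rose. Tnpo3, which imports splicing factors rich in serine and arginine, was at 119, 114, 102 and 112 CPM in Pilo and 87.9, 86.6, 87.1 and 86.8 CPM in Mock (log2 fold change 0.36, SE 0.07, adjusted p = 0.00151). The Mock samples were almost equal and all below Pilo. Ipo5, which imports ribosomal proteins and histones, was at 131, 128, 114 and 129 CPM in Pilo and 103, 96.6, 103 and 94.2 CPM in Mock (0.34, SE 0.07, adjusted p = 0.00304). Tnpo1, the importer of many RNA-binding proteins, was at 255, 220, 213 and 232 CPM in Pilo and 209, 165, 190 and 177 CPM in Mock (0.31, SE 0.09, adjusted p = 0.017). Neither gene's groups overlapped, though for Tnpo1 Pilo replicate 3 was close to Mock replicate 1, and its call was lost without Mock replicate 2 (adjusted p = 0.0582). Kpna2, an importin alpha that reads the classical import signal and is best known from dividing cells, was at 25.0, 25.9, 17.1 and 23.4 CPM in Pilo and 17.4, 18.7, 16.7 and 16.6 CPM in Mock (0.40, SE 0.12, adjusted p = 0.0214). Pilo replicate 3 fell within the Mock range, and the call was lost without Pilo replicate 1, 2 or 4 or Mock replicate 4 (adjusted p up to 0.0599).

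Ipo11, which imports certain ubiquitin-conjugating enzymes, was the only import receptor to fall, at 69.5, 66.3, 63.9 and 61.2 CPM in Pilo and 83.5, 80.1, 81.7 and 76.7 CPM in Mock (log2 fold change -0.30, SE 0.07, adjusted p = 0.00434), with no overlap. Kpnb1, the importin beta that carries importin alpha with its cargo, was at 211, 171, 194 and 170 CPM in Pilo and 190, 174, 207 and 160 CPM in Mock. These ranges overlapped throughout, and the difference did not pass the test (0.03, SE 0.10, adjusted p = 0.86). The other importin alphas had log2 fold changes of 0.09 to 0.55 without passing, the largest for Kpna7, which stood at only 0.421 ± 0.0896 CPM in Pilo and 0.289 ± 0.229 CPM in Mock (SD, n = 4 each). With the replicate block Kpna3, Kpna4, Ipo4, Ipo8 and Tnpo2 were also called, all higher, at adjusted p = 0.031, 0.0027, 0.0012, 0.013 and 0.0022. Ipo4 shares 55.3% of its exon bases with the overlapping gene Gm49378 on the same strand, so its exonic count is uncertain.

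The 6 nucleoporins among the members that were called in exons without the replicate block were all lower in Pilo. In the Y complex, which builds the outer rings, 3 of 6 member genes fell and 0 rose. Nup43 was at 1.31, 1.86, 2.58 and 2.09 CPM in Pilo and 2.75, 3.20, 3.81 and 3.49 CPM in Mock (log2 fold change -0.76, SE 0.21, adjusted p = 0.0138), and Nup37 was at 5.34, 4.11, 4.24 and 3.28 CPM in Pilo and 6.50, 7.53, 7.32 and 7.31 CPM in Mock (-0.75, SE 0.15, adjusted p = 0.00211). Both are small peripheral subunits, both had low counts, and neither had overlapping groups. Nup107, a core subunit, was at 24.8, 24.4, 21.7 and 21.4 CPM in Pilo and 28.6, 29.1, 26.3 and 27.7 CPM in Mock (-0.27, SE 0.08, adjusted p = 0.023). Its groups were close, and the call was lost in 5 of the 8 fits that left out a library, those without Pilo replicate 3 or 4 or Mock replicate 1, 2 or 4 (adjusted p up to 0.0755). Nup85, Nup133 and Nup160, the other core subunits among the members, did not pass, at 0.06, -0.06 and -0.11. Nor did Sec13, Seh1l and Ahctf1, Y complex genes outside the symbol rule, at -0.02, 0.16 and 0.04 (adjusted p = 0.887, 0.196 and 0.758). With the replicate block Seh1l was called higher (adjusted p = 0.0478).

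In the inner ring 2 of 5 genes fell and 0 rose. Nup93, which anchors the inner ring scaffold, was at 20.5, 20.7, 22.0 and 24.3 CPM in Pilo and 31.9, 26.6, 30.7 and 32.5 CPM in Mock (log2 fold change -0.48, SE 0.09, adjusted p = 0.00154). Its partner Nup205 was at 95.6, 87.9, 90.3 and 86.2 CPM in Pilo and 121, 111, 117 and 106 CPM in Mock (-0.34, SE 0.07, adjusted p = 0.00298). For both, every Pilo sample was below every Mock sample. Nup155, Nup188 and Nup35 did not pass, at -0.15, 0.15 and 0.30, and were called with the replicate block, at adjusted p = 0.044, 0.035 and 0.0029. Nupl2, a cytoplasmic-side FG protein known from human cells to bind the mRNA export factor Gle1, was at 14.1, 13.7, 14.4 and 12.6 CPM in Pilo and 17.9, 20.1, 17.7 and 20.0 CPM in Mock (-0.46, SE 0.09, adjusted p = 0.00172), with no overlap.

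No member of the central channel, the nuclear basket or the membrane group passed the test in the exonic table, out of 3, 2 and 2. The membrane group held Nup210 and its paralog Nup210l, which stood at only 0.262 CPM per kb in Mock. Nup153, the basket protein to which transport complexes and chromatin bind, was at 106, 78.4, 86.1 and 83.0 CPM in Pilo and 91.4, 77.0, 92.4 and 80.6 CPM in Mock (log2 fold change 0.05, SE 0.10, adjusted p = 0.743). Its groups overlapped almost fully. Nup98, an FG protein of the channel, had 0.23 (SE 0.10, adjusted p = 0.112) and was called with the replicate block (adjusted p = 0.014). Of 10 tested pore components outside the symbol rule, 1 rose and 0 fell (10.0% called, against 31.8% of all genes). That was the membrane nucleoporin Pom121, at 157, 159, 144 and 147 CPM in Pilo and 136, 127, 130 and 128 CPM in Mock (0.22, SE 0.07, adjusted p = 0.026), a call lost in 3 of the 8 fits that left out a library. With the replicate block 3 of the 10 were higher and 1 lower, against 4572 higher and 4443 lower of all 19176 genes.

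Of all members, Nxt1 had the largest fall in exons. Nxt1 (ENSMUSG00000036992, chromosome 2, 148672601 to 148676027), the small cofactor that Nxf1 needs to bind the pore, was at 4.66, 4.37, 2.90 and 3.71 CPM in Pilo and 8.56, 7.66, 7.99 and 7.75 CPM in Mock. The highest Pilo sample was well below the lowest Mock sample, and the log2 fold change was -1.03 (SE 0.15, adjusted p = 0.000243). Nxf1 itself was at 338, 316, 325 and 320 CPM in Pilo and 400, 367, 370 and 341 CPM in Mock (-0.19, SE 0.07, adjusted p = 0.0705). Its samples did not overlap but it did not pass the test; it was called with the replicate block (adjusted p = 0.00519) and among the exons of the second table (-0.21, adjusted p = 0.0372), where the call was lost in 6 of the 8 fits that left out a library. Per kilobase of exon, Nxf1 had the highest level of the members, 73.3 ± 2.21 CPM per kb in Pilo and 83.5 ± 5.47 CPM per kb in Mock (SD, n = 4 each). Next in Mock were Ipo9 at 39.0, Kpnb1 at 27.8 and Xpo1 at 26.2 CPM per kb, and in Pilo Xpo1 stood at 35.5 CPM per kb, while the median of members in Mock was 10.2 CPM per kb. In Mock the levels of Kpnb1 and Xpo1 differed by less than the SD of Kpnb1, 3.04 CPM per kb.

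Within TREX, the complex that couples transcription and splicing to export, Thoc5 was at 50.8, 59.7, 61.4 and 57.3 CPM in Pilo and 71.9, 74.3, 67.2 and 67.5 CPM in Mock (log2 fold change -0.29, SE 0.08, adjusted p = 0.0105). Thoc7, a partner of Thoc5, spanned 58.8 to 67.6 CPM in Pilo and 71.6 to 81.2 CPM in Mock (-0.27, SE 0.07, adjusted p = 0.0136). Both fell without overlap. Thoc6 rose, at 7.45, 7.24, 6.12 and 6.26 CPM in Pilo and 5.41, 4.93, 5.51 and 4.22 CPM in Mock (0.43, SE 0.14, adjusted p = 0.0267). This call was lost without Pilo replicate 1 or 2 or Mock replicate 2 or 4 (adjusted p up to 0.0791). On the opposite strand, the genes Bicdl2 and Hcfc1r1 overlap 14.6% of Thoc6 exon bases. Thoc1, Thoc2, Thoc3, Alyref and Nxt2 did not pass, with log2 fold changes of -0.20 to 0.16. Of 23 tested genes of mRNA export and cap binding outside the rule, 2 rose and 3 fell (21.7% called, against 31.8% of all genes). With the replicate block 4 were higher and 6 lower, against 4572 higher and 4443 lower of all 19176 genes. Cetn3 and Eny2, subunits of the TREX-2 complex at the pore, fell by 0.60 and 0.30 (adjusted p = 0.00395 and 0.00755), the TREX adaptor Chtop fell by 0.35 (adjusted p = 0.0126), and the adaptor Fyttd1 rose by 0.30 (adjusted p = 0.0063).

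**Figure D3:**
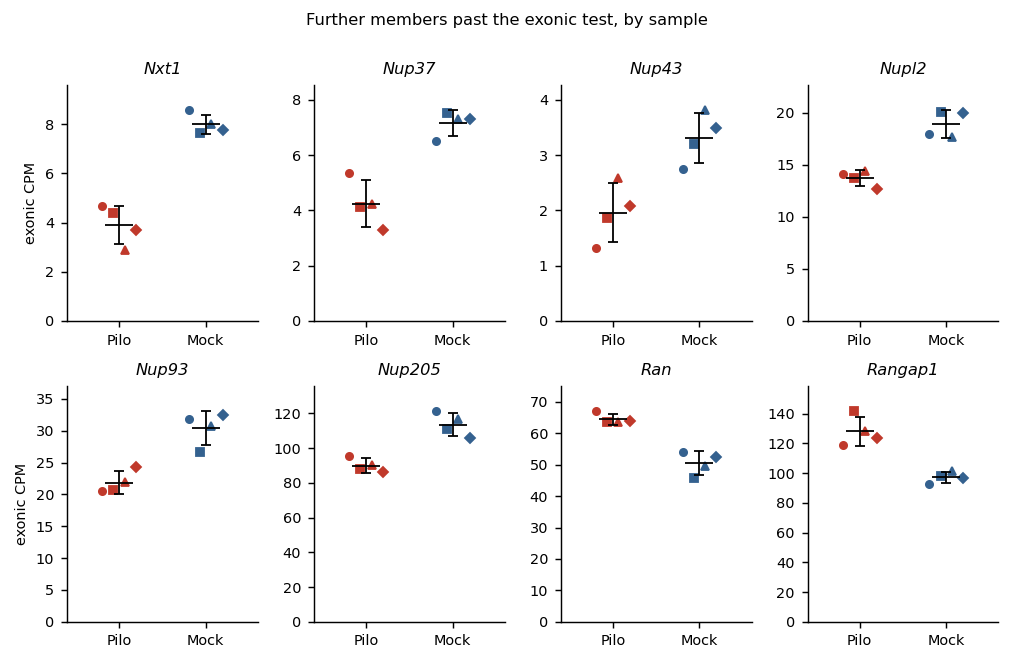
Exonic CPM (linear axis from 0) of 8 further members past the test in each Pilo and Mock sample. Symbols give the replicate number (circle 1, square 2, triangle 3, diamond 4) and black bars the mean and SD (n = 4 per group). Nxt1 and the 5 nucleoporins are lower in Pilo, and Ran and Rangap1 are higher, with no overlap in any panel.

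All 25 members called in the exonic table were called in the same direction among the exons of the second table, where 26 of 62 members (41.9%) passed, against 34.0% of all 14239 genes. These are the same libraries counted again, so this repeats the counting and not the experiment. In gene bodies, the sum of exonic and intronic counts, 25 of 62 members passed, 13 higher and 12 lower, against 37.2% of 14816 genes. With the replicate block 23 were higher and 15 lower in gene bodies, and 19 higher and 15 lower among the exons of the second table. Over all genes the block gave 4281 higher and 3712 lower in gene bodies, and 3572 higher and 3538 lower among those exons.

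Intronic reads come mostly from unspliced RNA. In introns 11 members were higher and 12 lower of 61 (37.7%), against 41.4% of 13318 genes, 19.6% higher and 21.9% lower. With the replicate block 15 members were higher and 16 lower, against 3686 higher and 3893 lower of all 13318 genes. Without it, exonic and intronic calls coincided in direction for 16 members, 7 higher and 9 lower, and were opposite for 0. A further 9 members were called in exons alone, 5 higher and 4 lower, and 7 in introns alone, 4 higher and 3 lower. The same overlaps of calls were not counted over all genes, so these counts show nothing particular to the members. Intronic Xpo1 was at 187, 180, 186 and 179 CPM in Pilo and 90.2, 105, 81.9 and 101 CPM in Mock, which is 0.95 as a log2 fold change (SE 0.10, adjusted p = 4.89e-06), with the Pilo samples close together and far above Mock. Intronic Xpot was at 41.7, 49.1, 38.9 and 34.3 CPM in Pilo and 80.3, 91.9, 81.3 and 75.5 CPM in Mock (-1.01, SE 0.12, adjusted p = 1.47e-05). Intronic Xpo5 was at 106, 114, 108 and 112 CPM in Pilo and 201, 186, 189 and 190 CPM in Mock (-0.80, SE 0.09, adjusted p = 6.74e-06). The groups of these exporters were wide apart. Introns of Nup43, Nup37, Nxt1 and Nupl2 were lower, with log2 fold changes of -1.39, -1.19, -1.15 and -0.70, so that 4 members passed 2-fold in introns (Xpot, Nup43, Nup37 and Nxt1). The share of all genes past 2-fold was not computed.

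Without the block, some members passed only in introns. Higher there were Ranbp2, the large cytoplasmic filament protein, at 0.46 (SE 0.11, adjusted p = 0.00418), Nup98 at 0.53 (SE 0.12, adjusted p = 0.00301), the importin alpha Kpna1 at 0.46 (SE 0.11, adjusted p = 0.0043) and Ipo4 at 0.45 (SE 0.13, adjusted p = 0.0137). Lower were Thoc3 at -0.63 (adjusted p = 0.00951), Nxt2 at -0.51 (adjusted p = 0.045) and Ranbp10 at -0.35 (adjusted p = 0.00777). All of these but Nxt2 also passed the test of exonic against intronic change described next; for Nxt2 that difference was 0.28 (adjusted p = 0.131). The intronic calls of Nxt2, Ranbp1, Rangap1, Nup107 and Thoc7 were each lost in 4 to 6 of the 8 fits that left out a library, with adjusted p of up to 0.133, 0.137, 0.0863, 0.093 and 0.11. Named pseudogenes of Ranbp2 number 12 in the annotation, so reads of Ranbp2 exons may be shared with them.

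The difference between exonic and intronic change was tested directly, as the interaction of region with treatment. It passed for 16 of 61 members (26.2%), the same share as over all 13047 genes (26.2%), with 7 higher in exons (13.5% of all genes) and 9 lower (12.8%). Under the replicate block these were 12 and 12, against 2680 higher and 2446 lower of all 13047 genes. Since each region was scaled on its own, a difference is relative to the typical gene. Before scaling, introns held 29.2% to 30.6% of all counts of the second table in Pilo and 31.9% to 33.7% in Mock. The mean unscaled intronic share of a gene's own counts was 24.9% in Pilo and 23.5% in Mock for Ranbp2, and 40.4% and 39.1% for Nup98. It was 48.0% and 47.0% for Ipo11, and 30.1% and 36.2% for Xpo5. For Xpo1 the exonic change was smaller than the intronic one by 0.56 on the log2 scale (SE 0.10, adjusted p = 0.00123); exonic counts of that table were 333, 231, 254 and 269 CPM in Pilo and 206, 224, 191 and 195 CPM in Mock, closer between groups than the intronic counts given above. For Xpot the exons fell less than the introns, with exonic counts of 56.8, 65.0, 52.4 and 50.6 CPM in Pilo and 83.8, 88.2, 86.1 and 80.9 CPM in Mock (exonic minus intronic change 0.42, SE 0.07, adjusted p = 0.00108). For Xpo5 the difference did not pass in the fit without the block (0.15, SE 0.06, adjusted p = 0.0701).

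Ranbp2 and Nup98 were higher in introns with less difference in exons. Ranbp2 introns stood at 308, 231, 239 and 225 CPM in Pilo and 189, 202, 172 and 167 CPM in Mock. Ranbp2 exons stood at 408, 299, 279 and 292 CPM in Pilo and 325, 339, 266 and 267 CPM in Mock. The introns did not overlap between the groups and the exons did, and the exonic minus intronic change was -0.36 (SE 0.06, adjusted p = 0.00123). Nup98 introns stood at 221, 146, 159 and 189 CPM in Pilo and 139, 119, 115 and 123 CPM in Mock, and its exons at 133, 91.5, 104 and 114 CPM in Pilo and 103, 98.4, 88.9 and 95.2 CPM in Mock. Here too only the introns were free of overlap, and Pilo replicate 1 was the highest sample in both regions (-0.33, SE 0.06, adjusted p = 0.00213).

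Ranbp3 and Ipo11 changed in exons with little difference in introns, in opposite directions. Ranbp3 introns were at 99.7, 90.7, 114 and 112 CPM in Pilo and 101, 98.9, 109 and 108 CPM in Mock, and its exons at 166, 155, 202 and 180 CPM in Pilo and 141, 126, 149 and 153 CPM in Mock (exonic minus intronic change 0.31, SE 0.06, adjusted p = 0.00301). Ipo11 introns were at 217, 187, 181 and 187 CPM in Pilo and 200, 183, 165 and 182 CPM in Mock, and its exons at 93.6, 86.8, 89.2 and 82.5 CPM in Pilo and 106, 105, 102 and 99.0 CPM in Mock (-0.31, SE 0.07, adjusted p = 0.0059). In both, the intronic ranges overlapped and the exonic ranges did not. The exonic call of Ranbp3 in the second table held in only 4 of the 8 fits that left out a library (adjusted p up to 0.0699). The exonic sum of Ipo11 in that table was 1.22 times that of the first. The other members past this test without the block were Ipo8, Thoc3, Nup37, Nup43 and Ranbp10, with a higher exonic than intronic change, and Nup93, Kpna1, Ipo4, Ipo7 and Kpna2, with a lower one. Of these, Nup37, Nup43, Ranbp10, Ipo7 and Kpna2 were lost in 1 or more of the fits that left out a library, at adjusted p of up to 0.069, 0.163, 0.0891, 0.0667 and 0.124.

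**Figure D4:**
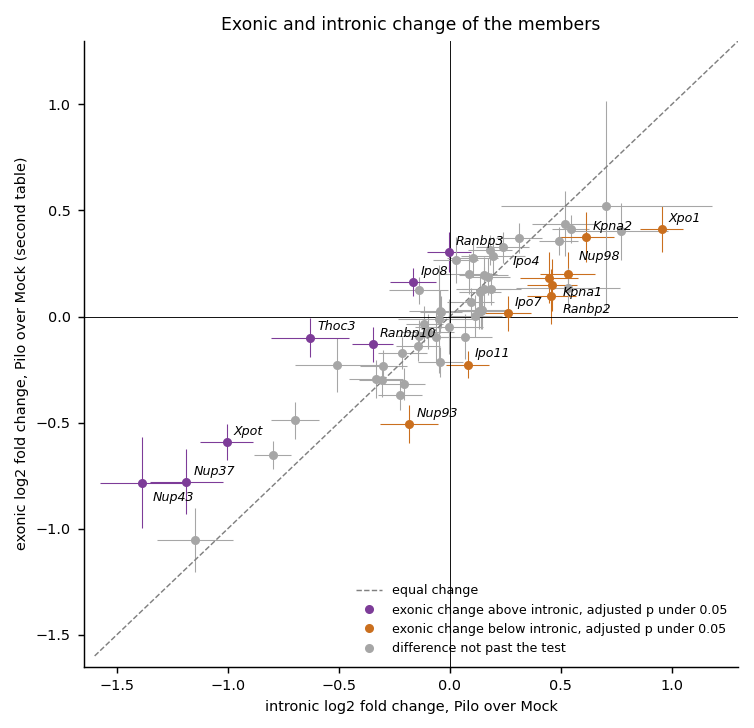
Intronic (x axis) and exonic (y axis) log2 fold change, Pilo over Mock, of 61 members in the second table, with standard errors. The dashed line marks equal change, and coloured, named points are the 16 members whose exonic and intronic changes differed at an adjusted p under 0.05. Xpo1 lies far to the right and below the line, Xpot far to the left and above it.

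**Figure D5:**
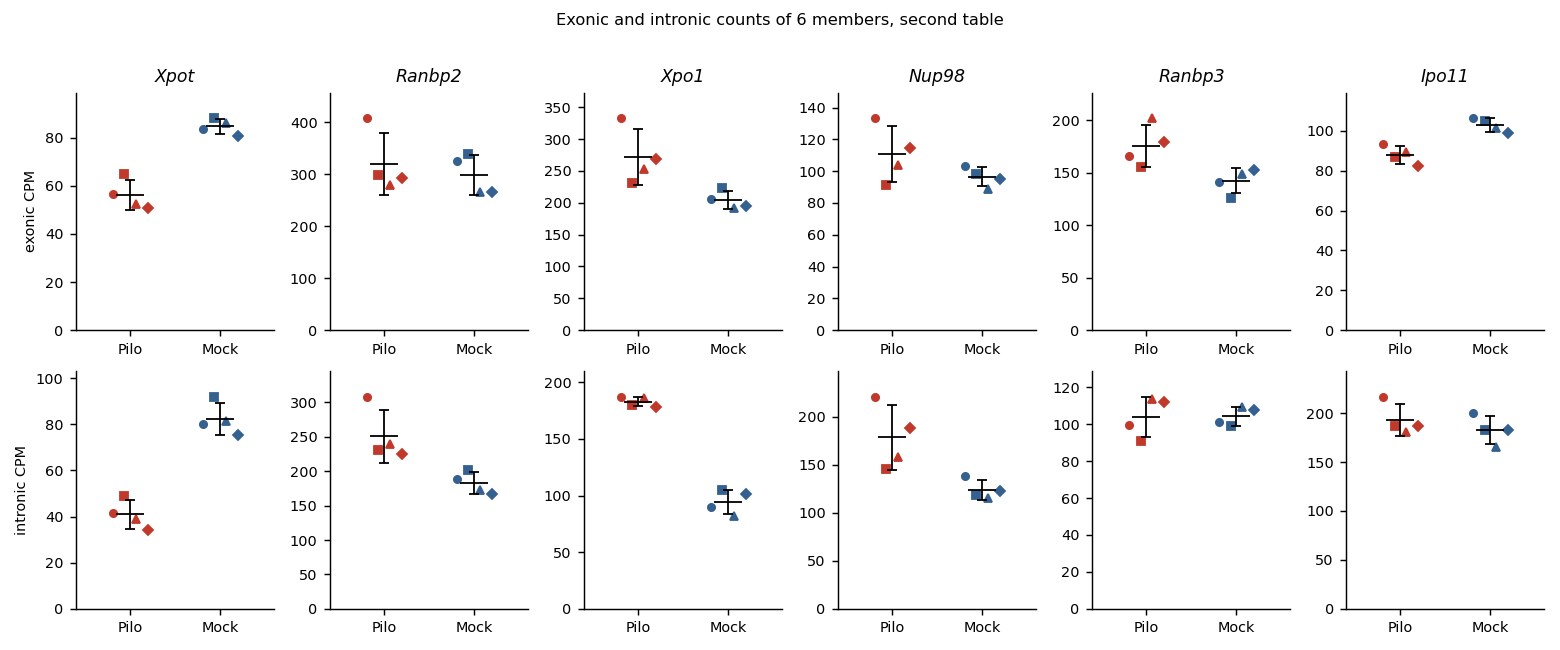
Exonic CPM (upper row) and intronic CPM (lower row), linear axes from 0, of the 6 members with the smallest p in the test of exonic against intronic change. Symbols give the replicate number in the second table (circle 1, square 2, triangle 3, diamond 4) and black bars the mean and SD (n = 4 Pilo and 4 Mock). Xpo1 introns separate the groups further than Xpo1 exons, and Ranbp3 groups are apart in exons and overlap in introns.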

How the data were processed

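The authors deposited unnormalized counts of reads for each gene. Tools listed in the submitters' processing notes, without their roles, are HTSeq 0.11.2, STAR 2.7.1a, Trimmomatic 0.39, edgeR and R 4.1.1, with the genome mm10, and the labels' protocols describe directional polyadenylated libraries. How strand was set and which annotation was used in counting is not given in the sources used here, so reads of overlapping or antisense genes may be shared. A symbol was matched for 55144 of the 55471 exonic-table identifiers and for 18507 of the 18513 in the second table.

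The members and gene lists were chosen with earlier results of these data known. Each comparison of 4 Pilo with 4 Mock samples was fitted on all genes with edgeR 4.0.16 in R 4.3.3: quasi-likelihood F-test (robust), TMM scaling, filterByExpr (minimum count 10), Benjamini-Hochberg threshold 0.05, and treatment as the only term. A standard error was computed as coefficient over root F. Exons were set against introns in a region by treatment interaction, with a sample covariate. The scripts were tested on simulated counts. Alternatives were RLE size factors, filters on low counts, DESeq2 1.42.0, limma-voom (limma 3.58.1), a replicate block and leaving out each library; the interaction had no DESeq2 or voom alternative. Libraries within a group were further apart than counting noise (chi-square over its degrees of freedom, 10.2 to 34.2). The titles share replicate numbers between the groups, and same-numbered Pilo and Mock libraries deviated together in exons (Pearson r 0.493, 0.540, 0.513 and 0.531 over 14665 genes, which are not independent), so the numbers were taken to pair the samples. The calls reported first nonetheless come from the planned fit without the block. Counts of members under the block stand beside them for each comparison. Blocked values of single members are given only for the 12 gained in the exonic table.

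Values of every sample were given for members past the exonic test (up to 12 per direction), for Ran, Kpnb1, Xpo1, Nxf1 and Nup153 in any case, and for 6 members past the interaction test. Genes outside the symbol rule were named from fixed lists, up to 4 of smallest p per list among those past the test. Sun1, Sec13, Seh1l and Ahctf1 were named from the lists besides, without passing it. Intronic Xpo5 was chosen after its values were seen. Motif windows came from a RefSeq promoter table on GRCm38.p6; protein sequences were not used here.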

Additional observations from a re-analysis of the deposited data

Results flagged for a closer look

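In 9 of the 126 groups of 4 samples (63 members in Pilo and in Mock), 1 sample stood far from the other 3 in exonic CPM by Dixon's test, which chance does in about 1 in every 20 groups. Of these, 5 were Pilo replicate 1. In that library Ran was at 67.0 CPM (the other Pilo samples at 63.4 to 63.8), Ranbp2 at 382 (263 to 279), Kpna3 at 75.7 (68.0 to 68.6), Nup35 at 33.8 (24.8 to 25.6) and Alyref at 25.8 (21.7 to 22.3). In Pilo replicate 3, Nup88 was at 124 CPM (the others at 158 to 166) and Thoc1 at 213 (both ends of the others at 247). In Pilo replicate 2, Nup85 was at 103 CPM (85.9 to 88.3), and in Mock replicate 3, Kpna6 was at 98.8 CPM (92.1 to 93.0). Of the 63 members, 32 were highest among Pilo samples in replicate 1 and 26 lowest in replicate 3, the library with the highest endothelial and oligodendrocyte marker sums, 97.4 and 688 CPM. Whether these go together was not tested, and the same counts of highest and lowest libraries were not made over all genes.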

How the results depend on the processing

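No called member changed sign under any alternative. Members not called could: leaving out 1 library changed the sign of 13 of the 38 uncalled in the exonic table, such as Kpnb1 (-0.03 to 0.11). Counts of called members and of all genes stayed within 1.5 times under RLE size factors, no or a stricter filter on low counts, DESeq2 and limma-voom, where those were run; in exons DESeq2 called 16 members higher and 14 lower. With the replicate block every call of a member was kept, and 12 were gained in the exonic table, 8 in second-table exons, 8 in introns, 13 in gene bodies and 8 in exons against introns. Members called higher then numbered 22, 19, 15, 23 and 12, and all genes called higher numbered 4572 in the exonic table, 3572 in second-table exons, 4281 in gene bodies and 2680 in exons against introns. Leaving out 1 library gave 9 to 16 members higher and 11 to 13 lower in the exonic table, 7 to 13 higher in second-table exons (7 without Pilo replicate 3 or 4 or Mock replicate 1), 9 to 15 in gene bodies, and 4 to 7 in exons against introns (4 without Pilo replicate 2 or 3 or Mock replicate 1). Of the 25 exonic calls 18 held in every such fit, 7 higher and 11 lower. Without Pilo replicate 1 the median log2 fold change of members turned slightly negative, to -0.00 in the exonic table (0.05 with it) and -0.02 in second-table exons (0.02 with it). Low counts limit Kpna7, Nup43 and Nup210l. The second table's exonic sums were within 5% of the first for 59 of 62 members. Ipo4, Ipo11 and Thoc7 were outside that, at 1.97, 1.22 and 0.724 times the first.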

Other observations

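Neighbouring genes of the nuclear envelope were also tested. Of 16 nuclear lamina and envelope genes 4 rose and 2 fell in exons (37.5% called, near the 31.8% of all genes), with a median log2 fold change of 0.06. With the replicate block 4 were higher and 3 lower, against 4572 higher and 4443 lower of all 19176 genes. Emd, which encodes emerin, an inner nuclear membrane protein, was at 33.3, 41.6, 36.1 and 35.4 CPM in Pilo and 14.3, 14.8, 15.4 and 15.2 CPM in Mock (log2 fold change 1.29, SE 0.09, adjusted p = 1.12e-06). Every Pilo sample was far above every Mock sample. Tmpo, which encodes lamina-associated polypeptides, fell by 0.46 (adjusted p = 0.000891), while Tor1a, an ATPase of the envelope lumen, and Lemd3, an inner membrane relative of emerin, rose by 0.35 and 0.29 (adjusted p = 0.00325 and 0.00387). Sun1, whose product fused to sfGFP is the tag of these mice, was at 399, 420, 379 and 419 CPM in Pilo and 404, 359, 362 and 384 CPM in Mock (0.10, adjusted p = 0.348), and its reads could not be separated from those of the transgene.

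Of 16 genes of the SUMO cycle, a protein modification partly carried out at the pore, 5 rose and 3 fell (50.0% called, against 31.8% of all genes), with a median of 0.08. With the replicate block 6 were higher and 4 lower, against 4572 higher and 4443 lower of all 19176 genes. The modifier Sumo3 rose by 0.57 (adjusted p = 0.000183), the SUMO protease Senp6 rose by 0.28 (adjusted p = 0.00526), and the ligase Pias4 fell by 0.35 (adjusted p = 0.005). Sumo3 was at 52.1, 53.6, 46.8 and 53.3 CPM in Pilo and 35.4, 35.8, 30.6 and 36.7 CPM in Mock, with no overlap.

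Nupl1, which the count limit left out, had 67 counts over the 8 libraries in the exonic table and 27189 in the exons of the second table. In the annotation 55.4% of its exon bases are shared with genes on the same strand. In the second table its exons had a log2 fold change of 0.01 (adjusted p = 0.97) and its introns 0.34 (adjusted p = 0.02).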
